A study of Mus musculus with 6 samples.

Results

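The CoREST protein RCOR3 and the SIN3 protein SIN3B shared 266 sites in E14 mouse embryonic stem cells at which neither REST nor RCOR2 had a peak. The sites were chosen from the deposited peak lists, by the presence or absence of peaks: a row of the RCOR3 list was taken if a SIN3B midpoint lay under 400 bp away and no REST and no RCOR2 midpoint did. Of the 3744 RCOR3 peaks, 15 in a crowded stretch of chromosome X between 165300000 and 165400000 were left out, and the 266 sites were 7.13% of the remaining 3729. For comparison, 704 RCOR3 peaks met SIN3B and REST without RCOR2. These are called the REST-bound sites here, whereas the 266 are called the REST-free sites, which means free of a REST peak in the deposited list.

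Each of the 6 proteins REST, RCOR1, RCOR2, RCOR3, SIN3A and SIN3B was mapped by ChIP-seq in 1 library from E14 cells at passages 15 to 18. RCOR3 and SIN3B, like RCOR1 and RCOR2, were precipitated with a V5 antibody from stable E14 lines with low expression of a tagged transgene, while antibodies against the endogenous proteins were used for REST and SIN3A. The label of the SIN3B transgene gives its tag as VG and its antibody as V5. With 1 library per protein there is no replicate error and no test between conditions, and sites of 1 library are not replicates, so intervals below cover counting error alone and no p-value is given. Read depth is not given in the sources used here. Coordinates are given as deposited, in build mm8, and no genes or sequences of that build were used here.

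REST is a zinc finger repressor that holds neuronal genes silent in other cell types, stem cells among them. It recruits histone deacetylases through separate scaffolds: SIN3 proteins bind near its amino terminus and CoREST proteins near its carboxy terminus. RCOR3 belongs to the CoREST family, whose members also bind the histone demethylase LSD1, and SIN3B is a scaffold paralogous to SIN3A. Neither scaffold binds a specific DNA sequence by itself, and both families are known to be brought to DNA by other transcription factors too.

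The REST-free sites were a small part of the RCOR3 list. A SIN3B peak was found at 27.9% of all RCOR3 peaks outside the stretch (1039 of 3729), at 78.5% of those at REST without RCOR2 (704 of 897), and at 10.3% of those at neither REST nor RCOR2 (266 of 2581). Since these calls define the sites, the figures are a description. A further 10 RCOR3 peaks had SIN3B and RCOR2 without REST and were left out by the rule. The 266 RCOR3 peaks met 263 distinct SIN3B peaks, because 3 SIN3B peaks were each matched by a pair of neighbouring RCOR3 peaks. Joining REST-free sites under 400 bp apart left 265 separate places, so nearly all were single sites.

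In both lists the REST-free sites were of middling rank. The score in the fourth column of each list is the authors' own and its scale is not stated, so it was turned into a percentile within its list, with 100 the strongest and tied peaks given their mean. The median RCOR3 percentile was 49.3 (95% interval of the median 35.3 to 49.3) at REST-free sites and 78.9 (75.7 to 81.4) at REST-bound sites. At RCOR3 peaks with no SIN3B, REST or RCOR2 peak it was 35.3. For SIN3B the median was 49.5 (40.5 to 49.5) at REST-free sites, 75.6 (73.2 to 77.9) at REST-bound sites and 40.5 at SIN3B peaks without RCOR3, REST or RCOR2. Over all RCOR3 and all SIN3B peaks outside the stretch the medians were 49.3 and 49.5, the same values as at the REST-free sites. Many scores are tied: 66 of the 266 sites had the RCOR3 score 10.87 and 46 had the SIN3B score 10.78, the commonest values in each case.

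Few REST-free sites were in the upper quintile of both lists. The RCOR3 score ran from 9.2 to 28.44 at REST-free sites and up to 88.65 at REST-bound sites, with medians of 12.55 and 16.73. The SIN3B score ran from 9.53 to 73.78 at REST-free sites and up to 72.95 at REST-bound sites, so the ranges overlapped throughout for SIN3B and less so at the RCOR3 upper end. In the upper quintile of the RCOR3 list lay 34 REST-free sites (12.8%), in the upper quintile of the SIN3B list 31 (11.7%), and in both 1 (0.376%). By construction an upper quintile holds close to 1 in 5 peaks of its list, so both single shares were below that. For RCOR3 peaks without SIN3B, REST or RCOR2 the RCOR3 share was 8.16% (189 of 2315). For SIN3B peaks without RCOR3, REST or RCOR2 the SIN3B share was 16.2% (625 of 3858). Among REST-bound sites 201 of 704 (28.6%) were in the upper quintile of both. At or above the 50th percentile in both lists were 44 REST-free sites (16.5%) and 438 REST-bound sites (62.2%). Below it in both were 103 REST-free sites (38.7%), against 78 REST-bound sites (11.1%). Peaks tied at the median score counted as below it, since their percentiles were 49.3 (RCOR3 score 12.55) and 49.5 (SIN3B score 13.26). Among REST-free sites 32 had that RCOR3 score and 35 had that SIN3B score. The counts that unrelated ranks would give were not computed.

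The RCOR3 and SIN3B ranks were nearly unrelated at REST-free sites. Across the 266 sites Spearman's rho between the RCOR3 and the SIN3B percentile was 0.027, and across the 704 REST-bound sites it was 0.531. With sites split by RCOR3 percentile, rho was -0.041 (n = 160) below 50 and -0.105 (n = 106) from 50 upwards at REST-free sites, and 0.199 (n = 171) and 0.499 (n = 533) at REST-bound sites. These are descriptions over sites of the same pair of libraries, with a lower limit on the score in each list. The median difference between the RCOR3 and SIN3B percentile was close to 0 in both classes, at 2.79 and 2.81, but its middle 50% ran from -25.5 to 23.1 at REST-free sites and from -9.36 to 15.2 at REST-bound sites.

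**Figure D1:**
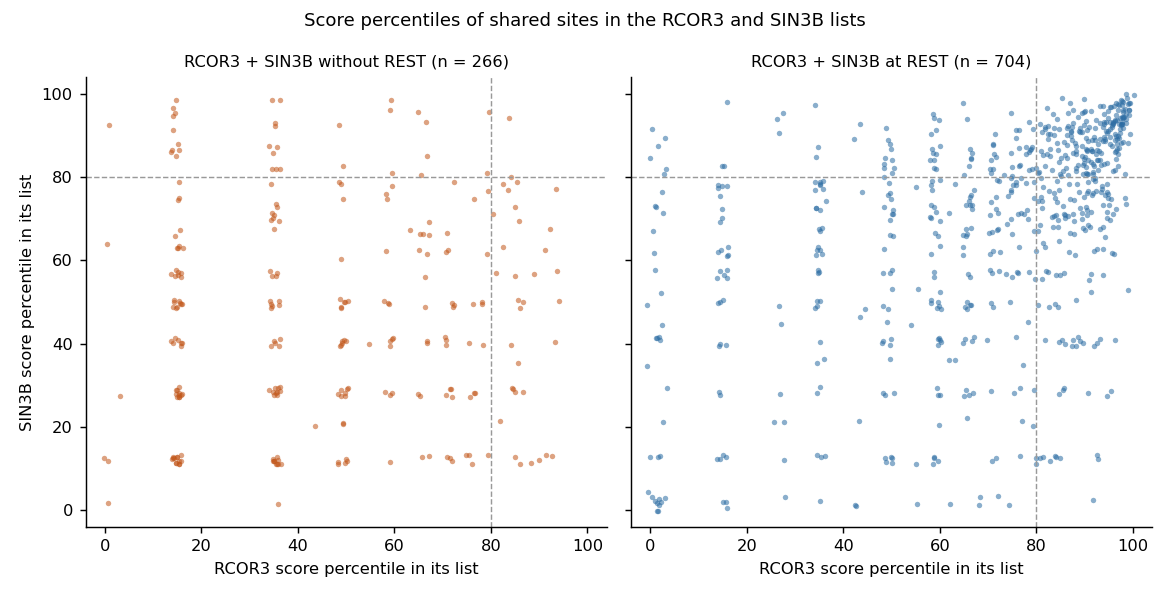
Percentile of the RCOR3 score (horizontal axis) against that of the SIN3B score (vertical axis), within the list of each protein, for the 266 REST-free sites (left) and the 704 REST-bound sites (right). Each point is a site, shifted slightly at random to show ties, and dashed lines mark the upper quintile of each list, which holds 1 REST-free and 201 REST-bound sites in both.

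The single strongest REST-free site by mean percentile lay at chr3:84391491-84391531. It ranked 580 of 3744 in the RCOR3 list (score 18.40) and 331 of 5318 in the SIN3B list (score 33.16), with midpoints 20 bp apart and the nearest REST peak 399160 bp away. The next, at chr5:121806711-121806751, ranked 739 for RCOR3 and 273 for SIN3B, with midpoints 200 bp apart. A weak REST peak of rank 2892 of 3104 lay 4700 bp from it. The third, at chr11:107168771-107169111, was the reverse kind, with RCOR3 rank 210 and SIN3B rank 1122. By contrast, the 3 REST-bound sites of highest mean percentile, at chr6:121438711-121438911, chr4:127122351-127122391 and chr2:28738211-28738251, ranked 14 to 36 for RCOR3, 40 to 69 for SIN3B and 11 to 24 for REST, and each also had a SIN3A peak.

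Next in order came chr8:23876871-23876951 (RCOR3 rank 580, SIN3B rank 1022), chr11:22967811-22967871 (508 and 1122) and chr4:129121271-129121331 (580 and 1122). The site at chr18:9957991-9958031 (1170 and 273) was the only one of the 10 highest with a SIN3A peak, and its nearest REST peak was 1630240 bp away. The 10 were completed by chr5:138385691-138385731 (739 and 940), chr5:113461591-113461751 (655 and 1122) and chr13:23559011-23559071 (275 and 1673). None of the 10 was among the 100 highest in either list.

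Sites at the top of one list were mostly ordinary in the other. The highest RCOR3 peak among REST-free sites, at chr14:60127051-60127091, had RCOR3 rank 173 and SIN3B rank 2485, with midpoints 10 bp apart and a SIN3A peak. RCOR3 rank 210, at chr11:107168771-107169111, went with a higher SIN3B rank of 1122 (percentile 77.9). RCOR3 rank 228, at chr5:137870871-137871051, went with SIN3B rank 4204. The highest SIN3B peak, matched to the RCOR3 peak at chr17:84998931-84998991, had SIN3B rank 39 (score 73.78) and RCOR3 rank 2124. RCOR3 rank 2124 recurred at chr3:82443871-82443911, where SIN3B ranked 59, whereas at chr17:70731151-70731331 the ranks were 1388 and 65. At the other end, the site at chr8:73698471-73698591 had the lowest RCOR3 score listed (9.2) and SIN3B rank 5180. The next lowest by mean percentile lay at chr7:80004091-80004211 and chr17:74433191-74433371, both with SIN3B rank 4204.

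The peaks of the 2 proteins lay farther apart without REST. The median distance between RCOR3 and SIN3B midpoints was 70 bp (60 to 80) at REST-free sites and 20 bp (20 to 30) at REST-bound sites. With all lists, REST included, matched by overlap of the deposited intervals, these were 30 bp (20 to 30) and 20 bp (20 to 20). Overlap itself limits the distance, and it changes which sites count as REST-free (194 sites). Midpoints under 50 bp apart were found at 96 REST-free sites (36.1%, 95% Clopper-Pearson interval 30.3 to 42.2%) and 500 REST-bound sites (71.0%, 67.5 to 74.3%). A distance of 100 bp or more was found at 94 (35.3%, 29.6 to 41.4%) and 52 (7.39%, 5.57 to 9.57%). Midpoints coincided exactly at 8 REST-free sites and 84 REST-bound sites. The intervals as deposited, mostly 40 to 120 bp wide, overlapped at 53.4% of REST-free sites (47.2 to 59.5%) and 84.8% of REST-bound sites (81.9 to 87.4%). The direction was balanced, with a median signed distance of -10 bp (-20 to 10).

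The median distance was larger without REST in each quintile of RCOR3 score. From the lowest to the highest quintile of the RCOR3 list the median distance was 60, 80, 70, 70 and 55 bp at REST-free sites, and 30, 25, 20, 30 and 20 bp at REST-bound sites. The intervals overlapped in the lowest quintile (40 to 80 and 20 to 50 bp) and not in the other 4. Quintiles were set by percentile, so ties make them unequal in size. Weighted to the RCOR3 or the SIN3B quintiles of the REST-free sites, the REST-bound median was 30 bp instead of 20 bp. Wide peaks have a less certain midpoint, and RCOR3 peaks over 100 bp wide made up 28.9% of REST-free sites (23.6 to 34.8%) and 20.03% of REST-bound sites (17.1 to 23.2%). Where both peaks were at most 60 bp wide, the median was 50 bp (40 to 70, n = 97) without REST and 20 bp (20 to 20, n = 409) with it, and distances of 100 bp or more occurred at 23 (23.7%) and 4 (0.978%) of them.

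**Figure D2:**
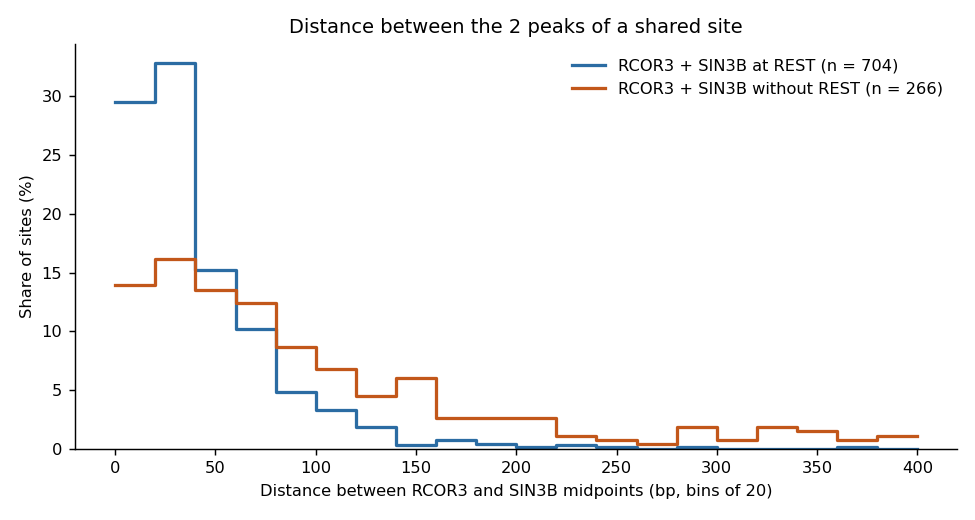
Share of sites (vertical axis, percent) by distance between the RCOR3 and SIN3B midpoints (horizontal axis, bp, bins of 20) for the 266 REST-free and 704 REST-bound sites. The REST-bound sites pile up below 50 bp (71.0%), while 35.3% of the REST-free sites lie at 100 bp or more.

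Other pairs of lists showed whether such spacing is common away from REST. SIN3A and SIN3B had a median distance of 70 bp (60 to 80, n = 483) away from REST and 20 bp (20 to 30, n = 221) at REST, the same medians as RCOR3 with SIN3B. RCOR2 and RCOR3, both of the CoREST family, stayed close in both settings, at 30 bp (20 to 40, n = 190) away from REST and 20 bp (10 to 30, n = 59) at REST. A distance of 100 bp or more was found away from REST for 37.3% of SIN3A peaks with SIN3B, for 35.9% of all 276 RCOR3 peaks with SIN3B and for 4.74% of RCOR2 peaks with RCOR3. RCOR3 with SIN3A, at a median of 50 bp (30 to 60, n = 67), had a share of 23.9%, and RCOR2 with SIN3B, at 40 bp (20 to 110, n = 23), one of 34.8%. These pairs share the SIN3B or the RCOR3 library, and no test was made between them.

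The limit of 400 bp cuts through a falling tail. Among the 2581 RCOR3 peaks at neither REST nor RCOR2, the nearest SIN3B midpoint was under 100 bp away at 172 peaks, from 100 to under 200 bp at 60, from 200 to under 300 bp at 18 and from 300 to under 400 bp at 16. Just outside, it was 400 to under 500 bp away at 12 and 500 to under 600 bp away at 12. The 9 sites at 340 to 390 bp had a median RCOR3 percentile of 35.3 and a median SIN3B percentile of 49.5, and 3 of them had SIN3A. For the 10 RCOR3 peaks at 400 to 460 bp these were 32.1 and 34.4, and 0 had SIN3A. The outermost bin thus held 16 sites where the next bin of equal width held 12. The tail went on, with 46 peaks from 400 to under 1000 bp and 32 from 1000 to under 2000 bp. Counts that unrelated neighbouring peaks would give were not computed.

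SIN3A, which the choice of sites did not use, was present at 37 of the 266 REST-free sites (13.9%, 9.99 to 18.7%). Over all RCOR3 peaks outside the stretch its share was 7.19%, and over all SIN3B peaks 13.7%, so the REST-free sites were near the SIN3B background. The share was 21.4% (151 of 704, 18.5 to 24.7%) at REST-bound sites, 12.0% (463 of 3858, 10.99 to 13.1%) at SIN3B peaks without RCOR3, REST or RCOR2, and 1.12% (26 of 2315, 0.735 to 1.64%) at RCOR3 peaks without SIN3B, REST or RCOR2. REST-free sites minus REST-bound sites gave -7.54 percentage points (Newcombe 95% interval -12.4 to -2.05). The interval included 0 with intervals overlapping as deposited (-3.86 points, -9.34 to 2.52). It also did with peaks at or above the median score in every list (-9.32, -16.7 to 0.927), or in RCOR3 and SIN3B alone (-7.85, -16.5 to 3.50). With RCOR2 allowed the difference was -11.5 points. Against SIN3B peaks without RCOR3 the difference was 1.91 points (-1.89 to 6.69), an interval that includes 0. Against RCOR3 peaks without SIN3B it was 12.8 points (9.10 to 17.5).

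The SIN3A difference from REST-bound sites varied with rank. By quintile of the RCOR3 list, from lowest to highest, SIN3A was at 13.9, 14.5, 15.4, 15.1 and 8.82% of REST-free sites and at 13.9, 6.25, 16.2, 14.8 and 29.7% of REST-bound sites. The upper quintile thus held 3 of 34 REST-free sites with SIN3A (1.86 to 23.7%) and 100 of 337 REST-bound sites (24.9 to 34.9%), while the intervals of the lower 4 quintiles overlapped. With REST-bound sites weighted to the RCOR3 quintiles of the REST-free sites, their share was 15.0% and the difference -1.05 points. Weighted by SIN3B quintiles instead, it was 11.65% and the difference turned to 2.26 points. Within SIN3B quintiles the REST-bound shares were 8.62, 0 (0 of 41), 7.9, 16.7 and 36.7%. REST-free shares were 8.33, 12.0, 15.5, 11.3 and 25.8%, beside 5.99, 6.35, 8.94, 14.2 and 28.5% at SIN3B peaks without RCOR3. In the upper SIN3B quintile the REST-free (11.9 to 44.6%) and REST-bound (31.0 to 42.7%) intervals overlapped. In the lower 3 the REST-free share was higher than at SIN3B peaks without RCOR3, by margins within its interval.

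**Figure D3:**
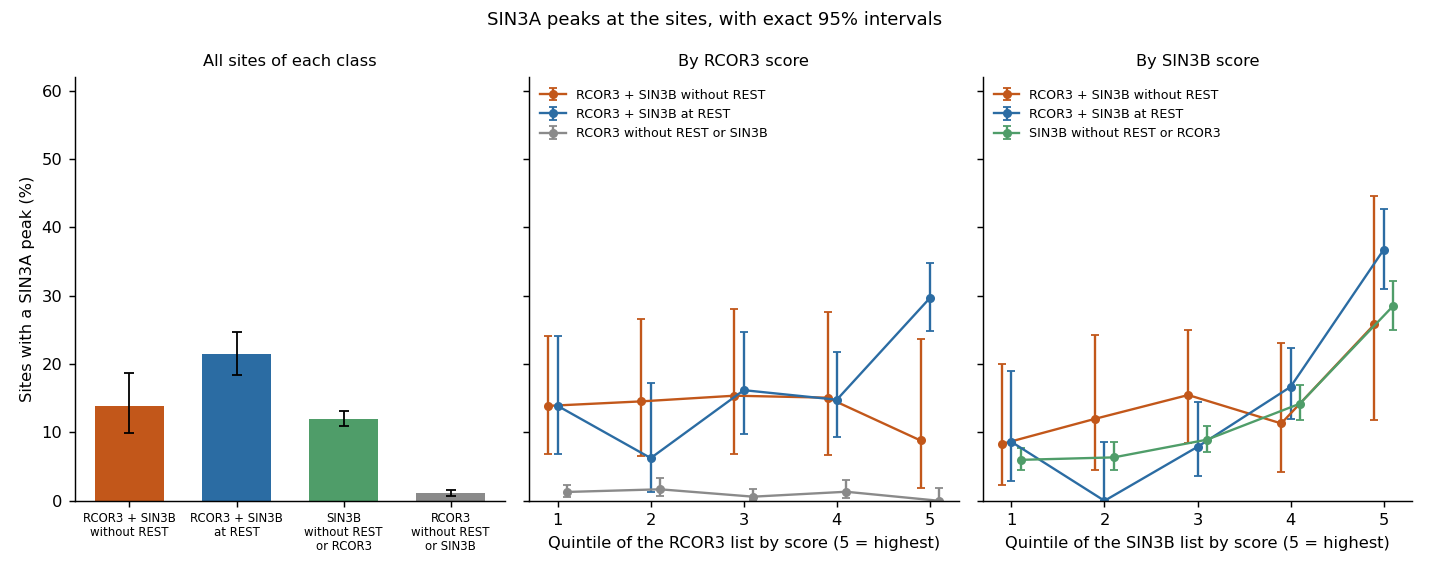
Share of sites with a SIN3A peak (vertical axis, percent) for each class of site (left) and by quintile of the RCOR3 list (middle) or the SIN3B list (right), with exact 95% intervals as bars. REST-free sites (13.9%) lie near SIN3B peaks without RCOR3 (12.0%) and above RCOR3 peaks without SIN3B (1.12%). In the upper quintile of the RCOR3 list the REST-bound share is 29.7% against 8.82%. In that of the SIN3B list it is 36.7% against 25.8%, with overlapping intervals.

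Where SIN3A joined the REST-free sites, the other peaks were of ordinary strength. The median RCOR3 percentile was 49.3 with SIN3A and 49.3 without, and the median SIN3B percentile 49.5 (40.5 to 62.2) and 40.5 (40.5 to 49.5). At REST-bound sites these were 88.6 and 75.7 for RCOR3, and 87.8 and 70.4 for SIN3B. SIN3A peaks themselves had a median percentile of 43.6 in their list (17.7 to 70.0) at REST-free sites, 59.6 at SIN3B peaks without RCOR3 and 70.0 at REST-bound sites. Their median distance was 30 bp (20 to 60) from the RCOR3 midpoint and 60 bp (30 to 90) from the SIN3B midpoint, at which SIN3A was not matched. SIN3A lay nearer RCOR3 at 21 sites, nearer SIN3B at 14 and equally near at 2. At REST-bound sites the median distances were 30 bp from RCOR3 and 20 bp from SIN3B. There SIN3A lay nearer RCOR3 at 47 sites, nearer SIN3B at 70 and equally near at 34. Matching SIN3A at the SIN3B midpoint instead gave 38 REST-free sites (14.3%), of which 36 were found both ways.

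The strongest SIN3A peak among them lay at the site chr8:73539351-73539531, with SIN3A rank 108 of 1314, RCOR3 rank 1170 and SIN3B rank 402. SIN3A rank 158 was shared by chr2:71254291-71254331, chr11:72954491-72954631, chr11:74653811-74653891 and chr16:96250531-96250571. Their RCOR3 ranks were 2743, 979, 2743 and 2743 and their SIN3B ranks 3459, 4204, 2485 and 124. Of these 5 sites, 2 were in the upper quintile of the SIN3B list and 0 in that of the RCOR3 list.

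RCOR1, the founding CoREST protein, was at 0 of the 266 REST-free sites, which allows a share of up to 1.13% (3 counts of 266) or, as an exact 95% upper limit, 1.38%. Its share over all RCOR3 peaks outside the stretch was 1.5%, and it was at 24 of the 704 REST-bound sites (3.41%, 2.20 to 5.03%). The RCOR1 list held 84 peaks, 24 of them in the crowded stretch, so an absence is weakly determined. It was likewise at 0 of 2315 RCOR3 peaks without SIN3B and 0 of 3858 SIN3B peaks without RCOR3, all of them away from REST. No RCOR1 peak lay under 5000 bp from a REST-free site, and 3 sites had an RCOR2 peak between 400 and 5000 bp away. The V5 antibody used for RCOR3 and SIN3B was used for RCOR1 and RCOR2 too; its part in the shared sites was not tested.

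REST-free sites were mostly remote from REST. The median distance to the nearest REST midpoint was 168240 bp (137850 to 203800), with 25% under 64325 bp and 25% over 401642.5 bp. It was 92290 bp with matching by overlap of the deposited intervals (194 sites), where REST peaks nearby without overlap no longer excluded a site. With peaks at or above the median score in every list (76 sites) it was 304900 bp, but this also removes REST peaks. RCOR3 peaks without SIN3B had a median of 165680 bp (154480 to 178460), and SIN3B peaks without RCOR3 one of 161480 bp (152640 to 169710), so the intervals overlapped. Within 20000 bp of REST lay 33 REST-free sites (12.4%, 8.70 to 16.98%), 8.90% of RCOR3 peaks without SIN3B (7.77 to 10.1%) and 10.4% of SIN3B peaks without RCOR3 (9.498 to 11.4%). Within 5000 bp the shares were 4.14% (11 sites, 2.08 to 7.28%), 2.33% and 2.95%. More than 1000000 bp from REST were 22 sites (8.27%, 5.26 to 12.2%), beside 7.34% and 8.66%.

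The line between REST-free and REST-bound fell in a gap. The largest distance to REST among REST-bound sites was 270 bp, and the smallest among REST-free sites was 420 bp, at chr5:138385691-138385731, next to a REST peak of rank 750. This was the single site between 400 and 1000 bp. The next nearest were chr19:47071271-47071331 at 1400 bp from REST rank 713 and chr6:7640571-7640611 at 1620 bp from REST rank 1813. REST peaks near the 11 sites under 5000 bp had a median percentile of 40.8 (range 4.04 to 77.0) in the REST list. The list as a whole centres on 50 by definition, and REST peaks at REST-bound sites had a median of 85.5. Of the 11 sites, 1 had SIN3A. The farthest from REST were chr18:6136491-6136611, chr15:18763351-18763391 and chr13:82110611-82110691, at 5451700, 4543620 and 3475710 bp, all with RCOR3 rank 2743.

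**Figure D4:**
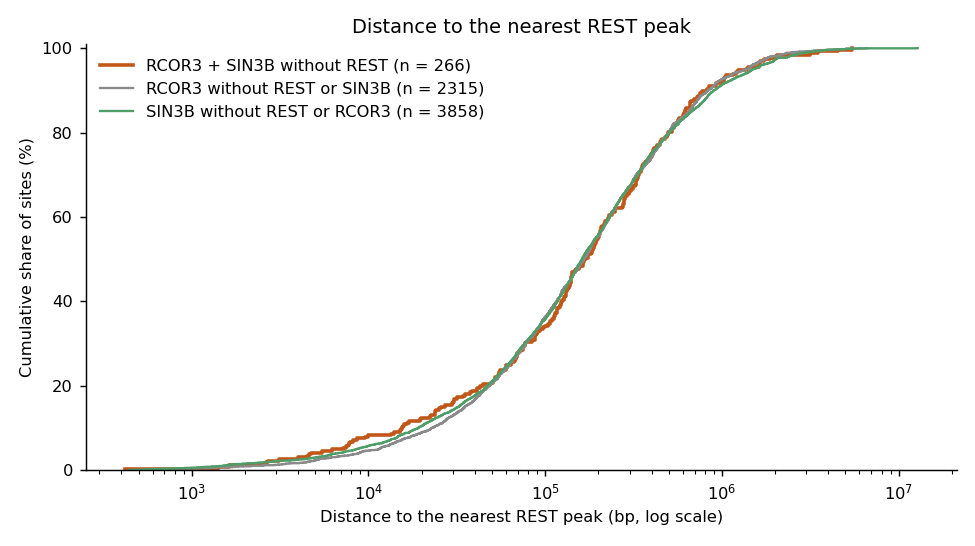
Cumulative share of sites (vertical axis, percent) by distance to the nearest REST peak (horizontal axis, bp, log scale) for the 266 REST-free sites, 2315 RCOR3 peaks without SIN3B and 3858 SIN3B peaks without RCOR3. The medians are 168240, 165680 and 161480 bp, and within 20000 bp lie 12.4, 8.90 and 10.4% of the sites.

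On every chromosome the interval of the REST-free share included the share of the RCOR3 list, whereas on chromosome 2 it lay above, and on chromosomes 8 and 9 below, that of the SIN3B list. Chromosome 11 held the most, with 33 (12.4%, 8.70 to 16.98%), beside 9.57% of all RCOR3 peaks, 9.18% of all SIN3B peaks and 8.81% of REST-bound sites. Chromosome 2 held 32 (12.0%, 8.38 to 16.6%), beside 9.39, 8.26 and 9.09%, and chromosome 5 held 26 (9.77%, 6.48 to 14.0%), beside 10.1, 7.40 and 11.4%. Among autosomes the fewest were on chromosome 9, with 3 (1.13%, 0.233 to 3.26%), where the RCOR3 list also had 1.07% and the SIN3B list 5.84%. Chromosome 8 held 10 (3.76%, 1.82 to 6.81%), beside 2.47% of RCOR3 and 8.80% of SIN3B peaks.

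Chromosome X held no REST-free site outside the crowded stretch, where the RCOR3 list had 2 peaks and the SIN3B list 26. As a share of RCOR3 peaks at neither REST nor RCOR2, REST-free sites ran from 5.05% on chromosome 12 (5 of 99, 1.66 to 11.4%) to 21.4% on chromosome 9 (3 of 14, 4.66 to 50.8%). Chromosome 8 was second, at 17.9% (10 of 56, 8.91 to 30.4%). The overall share of 10.3% lay within the interval of every autosome, and chromosomes were not compared with each other.

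**Figure D5:**
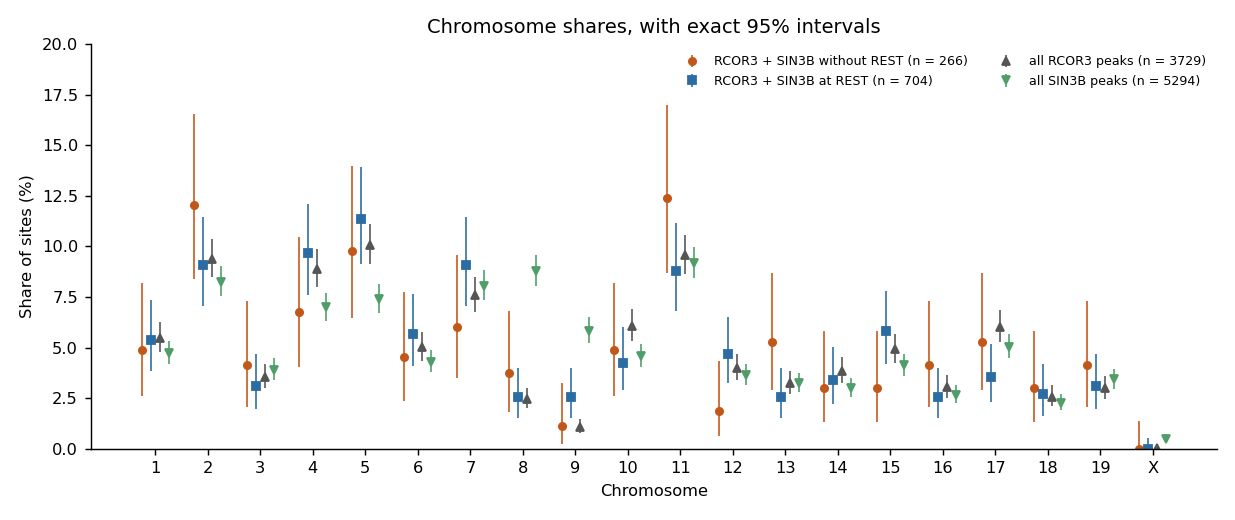
Share of sites on each chromosome (vertical axis, percent, with exact 95% intervals) for the 266 REST-free sites, the 704 REST-bound sites, all 3729 RCOR3 peaks and all 5294 SIN3B peaks outside the crowded stretch of chromosome X. REST-free sites are most frequent on chromosomes 11 (12.4%) and 2 (12.0%) and their interval lies above the SIN3B share on chromosome 2 and below it on chromosomes 8 and 9.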

How the data were processed

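The authors deposited 1 peak list per ChIP-seq library, with 4 columns (chromosome, start, end and a score assigned by the authors) and no header. The build mm8 comes from the names of the deposited lists. The sources used here do not give the aligner, peak caller, control, threshold or depth, nor the meaning of the deposited score. Scores were therefore used as ranks and percentiles within a list. Starts lie on a 20 bp grid.

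Peaks were matched by midpoint (under 400 bp, same chromosome), the nearest peak being taken as partner. SIN3A was matched at the RCOR3 midpoint, or at the SIN3B midpoint for SIN3B peaks without RCOR3. Shares have exact 95% Clopper-Pearson intervals, differences Newcombe intervals and medians order-statistic intervals (Python 3.11.15, numpy 2.4.6, scipy 1.17.1). A count of 0 is given with the share that 3 counts would make. On 20 simulated sets of 1000 sites, 0 were wrongly classed. The simulated peaks were narrow and their sites far apart, so this checks the code and not crowded sites or wide peaks. Regions named are the 10 highest by mean percentile, the 3 highest by RCOR3 and by SIN3B, the 5 highest by SIN3A, the 3 nearest to and farthest from REST, the 3 lowest, and the 3 highest at REST. The sites and comparisons were chosen with earlier results of these data known. Alternatives are given at the end. Sequences and gene annotation were not used here.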

Additional observations from a re-analysis of the deposited data

How the results depend on the processing

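Of 324 values of 11 results under 31 alternatives, 303 stayed within the interval of the reported value (for the number of sites, within 1.5 times). All 219 values with 1 chromosome left out did, but these keep most of the sites, so the tally of 303 is no measure of robustness. The 266 sites were the same without chromosome X or with its stretch kept. Values also stayed within it with midpoints within 200 or 1000 bp, no REST peak within 5000 bp, the stretch kept, or 1 site per SIN3B peak. Without chromosome 11 its own share has no value. With intervals overlapping as deposited, REST-free sites had a median RCOR3 percentile of 59.1, a SIN3B percentile of 53.0, a distance between midpoints of 30 bp and a distance to REST of 92290 bp, and SIN3A was at 18.3% of REST-bound sites. Overlap itself limits the distance between midpoints, and it counts fewer REST peaks as present. With peaks at or above the median score in every list, 76 sites remained, with medians of 68.7 (RCOR3), 64.5 (SIN3B), 55 bp and 304900 bp, and 17.1% on chromosome 11. With only the RCOR3 and SIN3B lists limited to such scores, there were 71 sites, with medians of 66.0 and 66.75. SIN3A was then at 19.7% of REST-free and 27.6% of REST-bound sites. In both settings percentiles were those of the full lists, so the cut itself raised the RCOR3 and SIN3B medians. With RCOR2 allowed, SIN3A was at 25.3% of REST-bound sites. Weighting REST-bound sites to the RCOR3 quintiles of REST-free sites gave 15.0% (difference -1.05 points), and to the SIN3B quintiles, added after seeing the data, 11.65% and a difference of the opposite sign, 2.26. The distance between midpoints at REST-bound sites was also added as a result after seeing the data. No paired analysis was possible because each protein has 1 library. Depth is unknown, so a missing REST, RCOR2 or RCOR1 peak does not show that the protein was absent.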

Other observations

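A few REST-free sites lay close to each other. Under 5000 bp from another REST-free site were 13 of the 266. Of these, 5 were on chromosome 13, 4 on chromosome 11, 2 on chromosome 1 and 2 on chromosome 4. Among the 13 were the 6 RCOR3 peaks that shared a SIN3B peak with a neighbour. The same count was not made for other RCOR3 peaks or for REST-bound sites. SIN3A was at 0 of the 13, beside 13.9% of all REST-free sites, and 13 sites are too few to compare. On chromosome 13 a pair at chr13:23559011-23559071 and chr13:23563111-23563571 had RCOR3 ranks 275 and 580. A group of 3 at chr13:23746391-23746611, chr13:23746951-23747111 and chr13:23747311-23747431 had RCOR3 ranks 1691, 1382 and 1170. These sites were singled out after their values were seen. Of the 1051 SIN3A peaks away from REST and outside the crowded stretch, 483 met SIN3B, 37 met both SIN3B and RCOR3, and 30 met RCOR3 without SIN3B. These were counted at the SIN3A midpoint with RCOR2 allowed. The 37 SIN3A peaks thus need not be those of the REST-free sites with SIN3A.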
